A study of Mus musculus with 21 samples.

Results

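Germline and meiosis genes form a set of 46 listed mouse genes, taken by gene symbol from the deposited table without a further cut on values. Of these, 43 were found among the 16443 genes of the table. The table was deposited as filtered, and the second-highest value of each gene in it was at least 21. The list was chosen with earlier results of these data known. Mei1, Tdrd6 and Nanos3 were not analysed here. By role, the 43 comprise 21 genes of the meiotic chromosome axis, synapsis and recombination, 13 genes of the piRNA pathway and germ granule, and 9 germ cell regulators and spermatogenic genes. A highest group mean of at least 50 was reached by 39 of them.

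Meiosis needs a chromosome axis of dedicated cohesins and axis proteins, a synaptonemal complex that joins homologous chromosomes, and enzymes that make and repair programmed DNA breaks, while piRNA proteins in germ granules silence transposons. Most somatic cells keep these genes off through promoter DNA methylation and the MGA and E2F6 containing Polycomb complex PRC1.6. Mouse embryonic stem cells are known to transcribe part of them without entering meiosis, and 2i medium is known to lower DNA methylation across the genome.

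Poly(A) RNA was profiled in 2TS22C, a mouse embryonic stem cell line, in 4 lines and 2 media. NTC cells were untransduced, with genotype WT and no doxycycline on their labels. SOX2, FNV and miniSOX cells had endogenous SOX2 silenced, were treated with doxycycline (DOX) and carried lentiviral SOX2, SOX17FNV (a SOX17 variant, SOX17 being a factor of endoderm) or miniSOX (no label explains the last). No label says whether a line was 1 clone, or what drives the rescue factor. Each line was grown in serum and LIF (SL) or in that medium with 2i, which inhibits MEK and GSK3. A comparison with NTC also holds DOX and transduction, which cannot be told apart from the rescue factor.

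The 21 libraries comprised 3 NTC, 4 SOX2, 4 FNV and 2 miniSOX libraries in 2i, and 2 of each line in SL. They fall into 2 sets by the wording of their organism label, and these sets are named waves. The first wave had 12 libraries, which were replicates 1 and 2 of the NTC, SOX2 and FNV lines in each medium. The second had 9, which were every miniSOX library and the 5 named p21 or p31, grown in 2i. Replicates 1 and 2 are not said by any label to be separate cultures, while the titles number the p21 and p31 libraries as biological replicates 2 and 3. Read that way, replicates 1 and 2 of the first wave would be 1 biological replicate, and NTC, SOX2 and FNV in SL would have n = 1. On the same reading miniSOX, with replicates 1 and 2 alone, would have n = 1 in each medium. The p-values therefore cover the spread between these samples alone, and that spread may be technical. The authors had normalized the values so that every library has a median of 214 and totals lie between 14044316 and 14047262, so the depth is not known and no interval for counting error can be made. Sox2 stood at 19 to 60 in FNV and miniSOX libraries and at 533 to 2697 in NTC and SOX2 libraries. Sox17 stood at 0 to 6 in NTC and SOX2 libraries. In FNV cells it was 1792 to 3301 in 2i and 13693 to 30391 in SL, and in miniSOX cells 1813 to 1953 and 4138 to 4179. A comparison of media in FNV or miniSOX cells thus also holds this difference in Sox17, whose part was not tested. All 6 pluripotent markers were present, with a summed value of 26185 to 75455. Of 13 postmeiotic and testis markers 4 were present in the filtered table, with a summed value of 72 to 193 in all libraries. The protamine and transition protein genes were not analysed here.

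The set did not move as a block: in each of the 12 comparisons between groups some members were higher and others lower. Stra8, the switch gene for meiotic entry, was higher in FNV than in SOX2 cells in 2i by 2.69 on the log2 scale and highest of all groups in miniSOX cells in 2i. Dazl, an RNA-binding protein of germ cells, was higher in 2i than in SL in every line. By the fit so were the meiotic cohesin gene Rec8 and the spermatid gene Rnf17. The Rec8 and Rnf17 calls in NTC, SOX2 and FNV cells were lost without a term for the wave. For both genes the p31 libraries in 2i lay within the range of the SL libraries. When replicates 1 and 2 of the first wave were averaged, the Dazl and Rec8 calls in NTC, SOX2 and FNV cells were lost. The Rnf17 calls in NTC and FNV cells were lost as well. Kit, the receptor for stem cell factor, was lower in FNV and miniSOX than in SOX2 cells in 2i, and Hormad2, a meiotic axis gene, was higher in FNV and miniSOX than in SOX2 cells in SL. Tex15, of meiotic recombination, fell from SL to 2i in SOX2 cells, and this change differed from that in NTC cells.

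Changes were fitted with limma on log2(value + 1) over all 21 libraries, with a term for each group and 1 for the wave, and a member was called at a Benjamini-Hochberg adjusted p under 0.05 over all 16443 genes. Each change below is a difference in log2(value + 1) ± its SE, and each adjusted p is from this limma fit. The wave term for miniSOX cells is estimated from the NTC, SOX2 and FNV libraries in 2i. A change of miniSOX against SOX2 printed below is therefore also given without it where its call depends on it. Over the 12 comparisons and 2 differences between media 240 member calls were made. Without the wave term 165 of the 240 kept their call, and with replicates 1 and 2 of the first wave averaged to 1 value 93 did. A call that this averaging ended is marked as lost on averaging. The miniSOX libraries, which also carry only the numbers 1 and 2, were not averaged, so averaging does not check a call between media in miniSOX cells. Where such a call was lost, it was lost through the refit with the other lines averaged. A level in bulk RNA does not tell more cells expressing a gene from more RNA per cell. Values are deposited values, listed as replicates 1 and 2, then p21 and p31 (NTC has p31 only), and are not scaled to gene length.

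**Figure D1:**
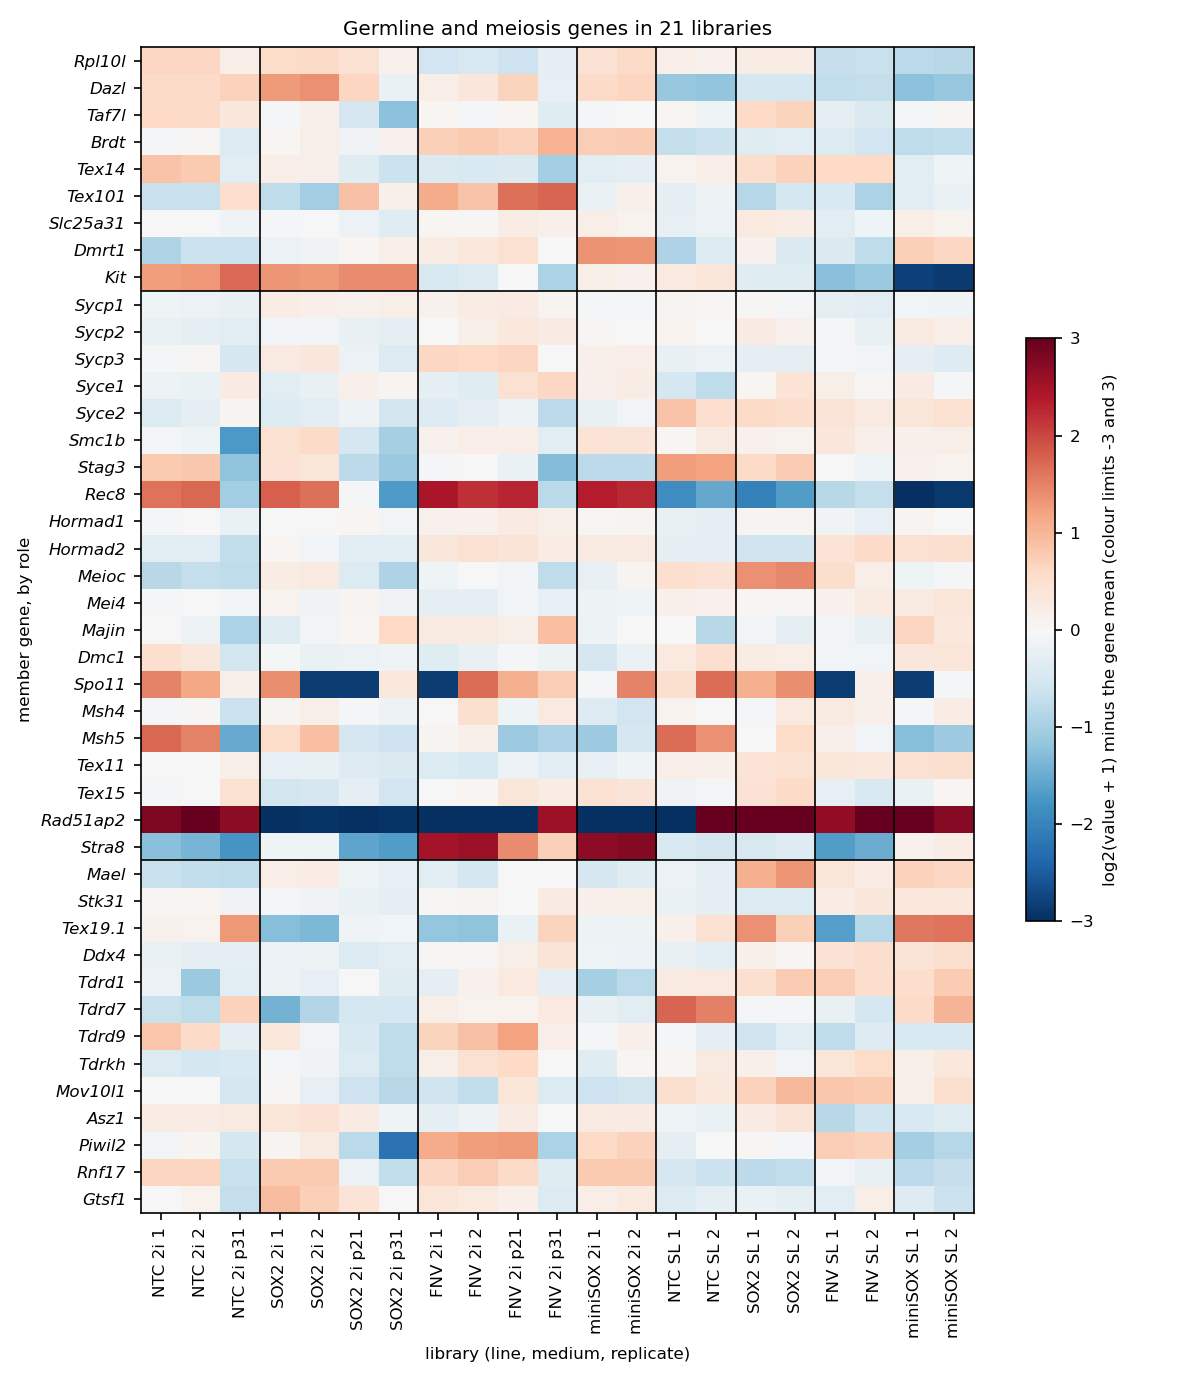
Each row is 1 of the 43 members, grouped by role between horizontal lines (germ cell regulators and spermatogenic genes at the top, meiotic chromosome genes in the middle, piRNA and germ granule genes at the bottom), and each column is 1 of the 21 libraries. Colour is log2(value + 1) minus the gene's mean over libraries, cut at -3 and 3. Rec8, Kit and Stra8 show the widest gradual ranges, and Rad51ap2 alternates between 2 levels.

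Stra8 (ENSMUSG00000029848, chromosome 6, 34920163 to 34939344, plus strand, GRCm38), a retinoic acid target required for meiotic entry, stood in 2i at 165, 149 and 114 in NTC, 361, 362, 130 and 122 in SOX2, 2240, 2394, 1055 and 649 in FNV and 2548 and 2659 in miniSOX cells. In SL it was 287 and 268 in NTC, 281 and 301 in SOX2, 122 and 139 in FNV and 428 and 458 in miniSOX cells. Every FNV and miniSOX library in 2i lay above every other library, and FNV libraries in SL were below those of the other lines in SL. In FNV cells Stra8 rose from SL to 2i (4.02 ± 0.23 in log2, adjusted p = 8.45e-09), and in 2i it was higher in FNV than in SOX2 cells (2.69 ± 0.18 in log2, adjusted p = 1.54e-07) and than in NTC cells (3.49 ± 0.19 in log2, adjusted p = 8.03e-09). In SL the direction between FNV and SOX2 was opposite (-1.15 ± 0.25 in log2, adjusted p = 0.00459, lost on averaging), a call lost without the wave term (adjusted p = 0.226). The difference between media passed (3.84 ± 0.30 in log2, adjusted p = 2.21e-06) and held without any 1 of 12 libraries. For miniSOX against SOX2 in 2i it was 4.22 ± 0.23 in log2, adjusted p = 5.44e-08, or 3.602 in log2 with adjusted p = 0.00036 without the wave term. In SL the change of 1.84 for miniSOX against SOX2 was 0.60 in log2 with adjusted p = 0.553 without that term. Within 2i the p21 and p31 libraries of SOX2 (130 and 122) and FNV (1055 and 649) were below replicates 1 and 2 of their line. Meioc, which keeps germ cells in the meiotic programme together with YTHDC2, was 220, 238 and 231 in NTC, 454, 472, 295 and 205 in SOX2, 359, 388, 370 and 230 in FNV and 329 and 415 in miniSOX cells in 2i. Its SL values were 557 and 529 in NTC, 1018 and 1065 in SOX2, 566 and 449 in FNV and 355 and 378 in miniSOX cells. NTC, SOX2 and FNV libraries in 2i lay below those of their line in SL, and miniSOX libraries overlapped between media. It fell in SOX2 cells (-1.39 ± 0.23 in log2, adjusted p = 0.000226) and in NTC cells (-1.08 ± 0.24 in log2, adjusted p = 0.00398, lost on averaging). The change in FNV cells did not pass (-0.375 ± 0.23 in log2, adjusted p = 0.222).

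**Figure D2:**
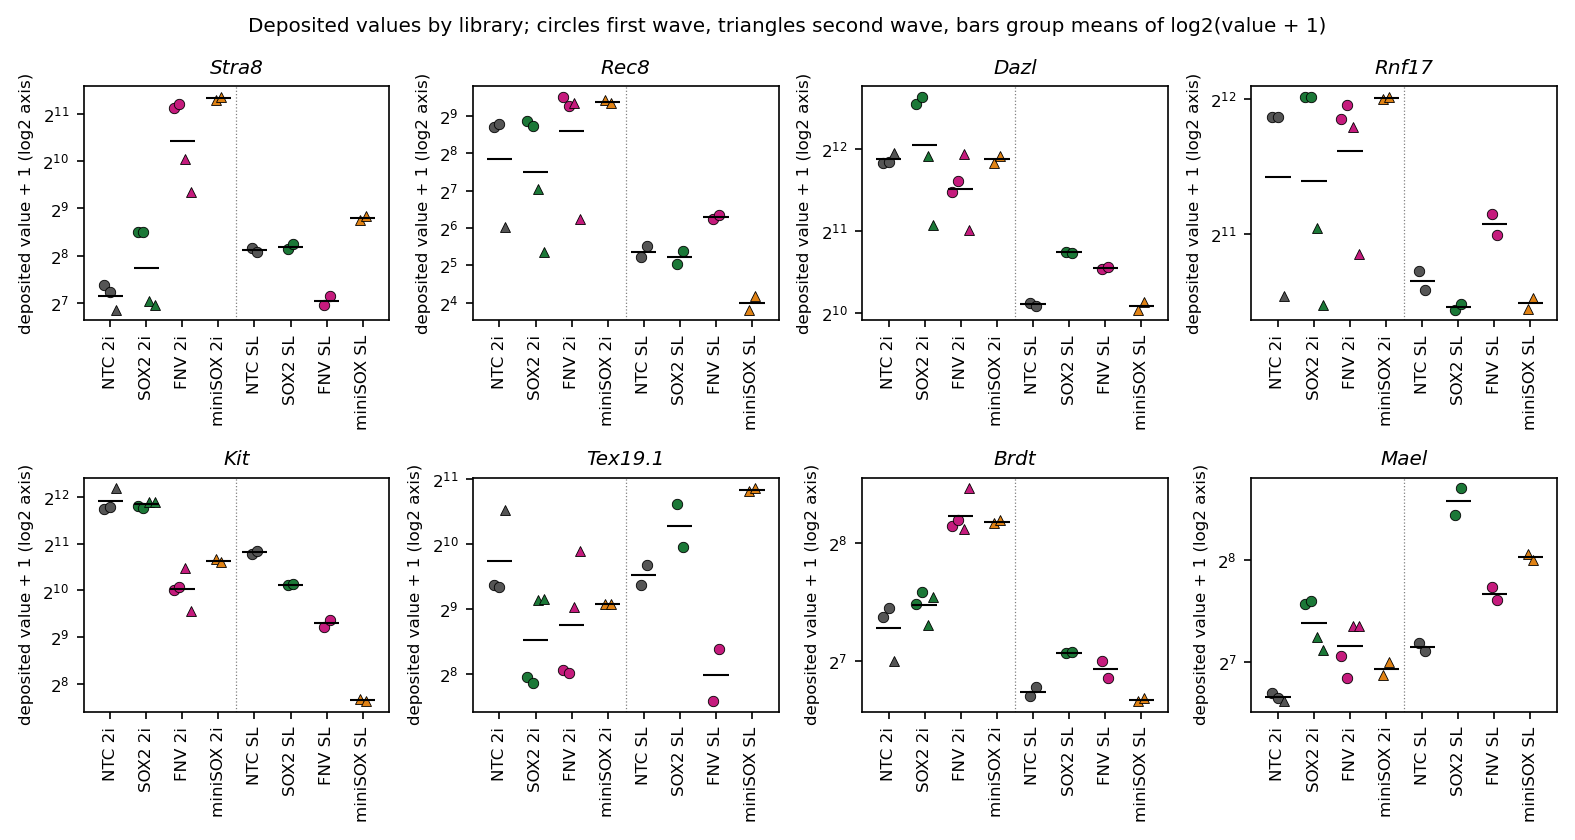
Each panel is 1 member, with the deposited value plus 1 on a log2 axis for the 21 libraries in 8 groups (2i left of the dotted line, SL right). Circles are first-wave and triangles second-wave libraries, and the bar is the group mean of log2(value + 1). FNV and miniSOX libraries in 2i stand above all others for Stra8, while the p31 libraries of Rec8 and Rnf17 in 2i reach the SL level.

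Rec8 (ENSMUSG00000002324, chromosome 14, 55618037 to 55625395, plus strand, GRCm38), the meiotic kleisin that closes the cohesin ring, showed 416, 441 and 64 in NTC, 466, 422, 130 and 40 in SOX2, 732, 613, 656 and 75 in FNV and 685 and 646 in miniSOX cells in 2i. In SL the values were 36 and 45 in NTC, 32 and 41 in SOX2, 74 and 80 in FNV and 13 and 17 in miniSOX cells. Replicates 1 and 2 of every line in 2i, with FNV p21, were at 416 or above, and the p31 libraries of the NTC, SOX2 and FNV lines lay within the range of the SL libraries. The rise in 2i was largest in miniSOX cells (5.39 ± 0.71 in log2, adjusted p = 4.09e-05). It also rose in SOX2 cells (3.403 ± 0.65 in log2, adjusted p = 0.000677, lost on averaging), FNV cells (3.44 ± 0.65 in log2, adjusted p = 0.000649, lost on averaging) and NTC cells (3.22 ± 0.66 in log2, adjusted p = 0.00271, lost on averaging), and without the wave term these 3 calls were lost (2.28, 2.31 and 2.47 in log2). Stag3, the meiotic SA subunit of cohesin, stood at 2191, 2218 and 545 in NTC, 1694, 1616, 727 and 581 in SOX2, 1211, 1256, 1094 and 511 in FNV and 729 and 735 in miniSOX cells in 2i. SL libraries gave 3034 and 2932 in NTC, 1871 and 2151 in SOX2, 1251 and 1162 in FNV and 1375 and 1356 in miniSOX cells. In 2i the p31 library was the lowest of each of the 3 lines that have one. FNV was below NTC in SL (-1.31 ± 0.31 in log2, adjusted p = 0.00558, lost on averaging), a call lost without the wave term (adjusted p = 0.16). Smc1b, the meiotic SMC subunit, was 979, 932 and 308 in NTC, 1399, 1525, 715 and 511 in SOX2, 1124, 1166, 1166 and 823 in FNV and 1347 and 1341 in miniSOX cells in 2i. It was 1071 and 1223 in NTC, 1110 and 1103 in SOX2, 1283 and 1142 in FNV and 1136 and 1152 in miniSOX cells in SL. The 8 SL libraries lay close together, and NTC p31 was the lowest library. The fitted change of miniSOX against SOX2 in SL (1.02 ± 0.34 in log2, adjusted p = 0.0485, lost on averaging) was 0.05 without the wave term, and the SL call ended without any 1 of its 4 libraries. FNV against NTC in 2i (0.85 ± 0.23 in log2, adjusted p = 0.00768) ended without NTC p31.

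Among synaptonemal complex genes, Sycp1, which forms the transverse filaments, held 898, 870 and 833 in NTC, 1136, 1079, 1068 and 1106 in SOX2, 1072, 1146, 1152 and 1037 in FNV and 949 and 939 in miniSOX cells in 2i. In SL it held 1035 and 1007 in NTC, 1007 and 949 in SOX2, 800 and 772 in FNV and 920 and 904 in miniSOX cells. All 21 libraries lay between 772 and 1152, and FNV libraries in 2i were all above those in SL. Its largest change was FNV between media (0.51 ± 0.06 in log2, adjusted p = 1.60e-05). Sycp2, a lateral element protein, was 525, 505 and 487 in NTC, 576, 572, 517 and 494 in SOX2, 612, 685, 752 and 715 in FNV and 625 and 599 in miniSOX cells in 2i. SL values were 650 and 607 in NTC, 715 and 667 in SOX2, 589 and 523 in FNV and 731 and 695 in miniSOX cells. The FNV against SOX2 difference went from below 0 in SL to above 0 in 2i (0.67 ± 0.13 in log2, adjusted p = 0.00247, lost on averaging). Sycp3, the other main lateral element protein, whose exons overlap those of Chpt1 on the opposite strand by 660 bases, was 917, 970 and 670 in NTC, 1146, 1193, 833 and 718 in SOX2, 1456, 1428, 1471 and 939 in FNV and 1055 and 1079 in miniSOX cells in 2i. SL libraries held 815 and 833 in NTC, 792 and 791 in SOX2, 920 and 892 in FNV and 791 and 728 in miniSOX cells. Replicates 1 and 2 and p21 of FNV, at 1428 or above, were the highest libraries. It was higher in FNV than in NTC cells in 2i (0.70 ± 0.12 in log2, adjusted p = 0.00023), and between media in FNV cells (0.75 ± 0.14 in log2, adjusted p = 0.000528, lost on averaging; without the wave term 0.52 in log2 with adjusted p = 0.0685). Of the central element genes, Syce1 was 102, 100 and 135 in NTC, 92, 98, 128 and 122 in SOX2, 94, 89, 158 and 175 in FNV and 128 and 133 in miniSOX cells in 2i. Its values in SL were 79 and 67 in NTC, 119 and 151 in SOX2, 130 and 117 in FNV and 136 and 109 in miniSOX cells. NTC was the lowest line in SL. The largest change was in the SOX2 against NTC difference between media (-0.998 ± 0.21 in log2, adjusted p = 0.00517, lost on averaging), which without the wave term was -0.90 in log2 with adjusted p = 0.154. Syce2 (ENSMUSG00000003824, chromosome 8, 84872111 to 84888221, plus strand, GRCm38) was 431, 465 and 600 in NTC, 431, 451, 511 and 389 in SOX2, 438, 463, 513 and 332 in FNV and 490 and 538 in miniSOX cells in 2i. In SL there were 1028 and 811 in NTC, 852 and 819 in SOX2, 749 and 682 in FNV and 732 and 779 in miniSOX cells. No library in 2i reached the SL libraries of its line. It fell in SOX2 cells (-0.94 ± 0.18 in log2, adjusted p = 0.000553) and in NTC cells (-0.91 ± 0.18 in log2, adjusted p = 0.00209, lost on averaging). It also fell in FNV cells (-0.76 ± 0.18 in log2, adjusted p = 0.00296, lost on averaging). In miniSOX cells (-0.56 ± 0.19 in log2, adjusted p = 0.0372, lost when the other lines were averaged) the call ended without any 1 of the 4 libraries.

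The HORMA domain proteins mark unsynapsed axes. Hormad1 held 1231, 1261 and 1103 in NTC, 1270, 1277, 1303 and 1182 in SOX2, 1370, 1379, 1502 and 1411 in FNV and 1283 and 1326 in miniSOX cells in 2i. It held 1072 and 1037 in NTC, 1337 and 1326 in SOX2, 1166 and 1068 in FNV and 1341 and 1265 in miniSOX cells in SL. These libraries spanned a narrow range, and 27.2% of the 50-base windows of its transcript are shared with other genes, so its reads are uncertain. The largest change was the FNV against SOX2 difference between media (0.42 ± 0.10 in log2, adjusted p = 0.00695, lost on averaging). Hormad2 (ENSMUSG00000020419, chromosome 11, 4345814 to 4441105, minus strand, GRCm38) was 183, 182 and 136 in NTC, 235, 214, 179 and 183 in SOX2, 287, 311, 295 and 264 in FNV and 273 and 274 in miniSOX cells in 2i. In SL its values were 185 and 186 in NTC, 151 and 149 in SOX2, 301 and 341 in FNV and 311 and 317 in miniSOX cells. Every FNV and miniSOX library, in either medium, was above every NTC and SOX2 library. In SL it was higher than in SOX2 cells in miniSOX cells (1.32 ± 0.13 in log2, adjusted p = 9.02e-06; 1.06 without the wave term) and in FNV cells (1.09 ± 0.11 in log2, adjusted p = 1.12e-05), and in 2i the FNV change was 0.52 ± 0.08 in log2, adjusted p = 0.000193. Majin, which tethers telomeres to the nuclear envelope, stayed between 11 and 42 and passed in no comparison.

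Break formation and repair genes followed no single direction. Mei4, needed for programmed breaks, was 560, 573 and 554 in NTC, 623, 541, 615 and 543 in SOX2, 477, 481, 546 and 491 in FNV and 525 and 531 in miniSOX cells in 2i. SL libraries had 645 and 637 in NTC, 602 and 592 in SOX2, 642 and 697 in FNV and 697 and 747 in miniSOX cells. FNV and miniSOX libraries in 2i were below those in SL, in miniSOX cells by -0.45 ± 0.09 in log2, adjusted p = 0.00136 and in FNV cells by -0.44 ± 0.08 in log2, adjusted p = 0.000587. Spo11, the enzyme that makes the breaks, lay between 0 and 22 and passed in no comparison. Dmc1, the meiotic recombinase, was 268, 239 and 129 in NTC, 182, 166, 169 and 175 in SOX2, 147, 163, 184 and 170 in FNV and 133 and 166 in miniSOX cells in 2i. It was 233 and 272 in NTC, 223 and 219 in SOX2, 180 and 180 in FNV and 242 and 243 in miniSOX cells in SL. NTC p31 was the lowest library, and both miniSOX libraries in 2i were below those in SL. The call in miniSOX cells between media (-0.70 ± 0.23 in log2, adjusted p = 0.0299, lost when the other lines were averaged) ended without replicate 1 in 2i or either SL library. Msh4, of the crossover complex MSH4 and MSH5, held 141, 147 and 92 in NTC, 154, 164, 138 and 130 in SOX2, 144, 203, 133 and 178 in FNV and 110 and 96 in miniSOX cells in 2i. Its SL libraries held 156 and 144 in NTC, 138 and 178 in SOX2, 174 and 162 in FNV and 138 and 168 in miniSOX cells. NTC p31 and the miniSOX libraries in 2i were the lowest. Its largest change was between media in miniSOX cells (-0.56 ± 0.20 in log2, adjusted p = 0.039, lost when the other lines were averaged). This call ended without either 2i library or replicate 2 in SL of miniSOX, and without the wave term. Msh5 ranged from 5 to 55, and its only call, FNV below NTC in SL (-1.48 ± 0.46 in log2, adjusted p = 0.0248, lost on averaging), ended without any 1 of those 4 libraries.

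Tex11, an X-linked gene for synapsis and crossovers, was 939, 930 and 1068 in NTC, 796, 802, 720 and 699 in SOX2, 713, 690, 839 and 740 in FNV and 800 and 867 in miniSOX cells in 2i. Its SL values were 1079 and 1045 in NTC, 1251 and 1303 in SOX2, 1222 and 1174 in FNV and 1303 and 1321 in miniSOX cells. In the SOX2, FNV and miniSOX lines every 2i library was below every SL library, and in NTC the media overlapped. It fell in 2i in SOX2 cells (-0.79 ± 0.09 in log2, adjusted p = 1.03e-05), FNV cells (-0.71 ± 0.09 in log2, adjusted p = 2.32e-05) and miniSOX cells (-0.66 ± 0.10 in log2, adjusted p = 0.000156), and the SOX2 against NTC difference between media passed (-0.65 ± 0.13 in log2, adjusted p = 0.00284, lost on averaging). Tex15 (ENSMUSG00000009628, chromosome 8, 33516738 to 33585582, plus strand, GRCm38), needed for recombination and for piRNA-directed silencing of transposons, was 600, 618 and 857 in NTC, 426, 441, 515 and 417 in SOX2, 628, 653, 798 and 728 in FNV and 857 and 808 in miniSOX cells in 2i. SL libraries were at 579 and 603 in NTC, 836 and 924 in SOX2, 527 and 452 in FNV and 542 and 651 in miniSOX cells. SOX2 cells had the lowest libraries in 2i and the highest in SL. The fall in SOX2 cells (-1.097 ± 0.12 in log2, adjusted p = 4.70e-06) differed from NTC (-1.22 ± 0.16 in log2, adjusted p = 0.000217), and FNV against SOX2 differed between media (1.49 ± 0.16 in log2, adjusted p = 3.03e-05). Rad51ap2 was 212, 287 and 196 in NTC, 2, 3, 2 and 3 in SOX2, 2, 2, 1 and 181 in FNV and 1 and 2 in miniSOX cells in 2i. In SL it was 2 and 306 in NTC, 351 and 398 in SOX2, 193 and 324 in FNV and 283 and 202 in miniSOX cells. Its libraries sat either at 1 to 3 or at 181 and above, with replicates 1 and 2 of NTC in SL on different levels and FNV p31 apart from the other FNV libraries in 2i. SOX2 cells were on the low level in all 4 libraries in 2i and on the high level in SL (-7.22 ± 1.72 in log2, adjusted p = 0.0036).

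Among germ granule genes, Ddx4, the Vasa helicase, was 354, 341 and 332 in NTC, 362, 370, 308 and 322 in SOX2, 422, 422, 465 and 538 in FNV and 372 and 364 in miniSOX cells in 2i. Its values in SL were 348 and 329 in NTC, 453 and 420 in SOX2, 549 and 589 in FNV and 539 and 566 in miniSOX cells. FNV was the highest line in 2i. Its largest change was FNV above NTC in SL (0.75 ± 0.12 in log2, adjusted p = 0.000339, lost on averaging). Mael (ENSMUSG00000040629, chromosome 1, 166201201 to 166238747, minus strand, GRCm38), a germ granule protein of transposon silencing, held 103, 99 and 97 in NTC, 189, 193, 151 and 138 in SOX2, 132, 114, 163 and 163 in FNV and 116 and 127 in miniSOX cells in 2i. SL libraries were 145 and 137 in NTC, 348 and 417 in SOX2, 212 and 194 in FNV and 266 and 256 in miniSOX cells. Both SOX2 libraries in SL stood above all others. Mael was higher in SOX2 than in NTC cells in SL (1.43 ± 0.19 in log2, adjusted p = 0.000191, lost on averaging) and fell in 2i in SOX2 cells (-1.19 ± 0.17 in log2, adjusted p = 7.11e-05). Piwil2, the piRNA-binding Argonaute also called MILI, was 204, 229 and 150 in NTC, 231, 263, 123 and 46 in SOX2, 470, 518, 531 and 112 in FNV and 330 and 351 in miniSOX cells in 2i. It was 181 and 216 in NTC, 223 and 210 in SOX2, 362 and 351 in FNV and 106 and 120 in miniSOX cells in SL. FNV replicates 1, 2 and p21 in 2i were the highest, and the p31 libraries of SOX2 and FNV were far below their lines. The change of miniSOX against SOX2 in 2i (1.89 ± 0.50 in log2, adjusted p = 0.0196, lost on averaging) ended without SOX2 p31 or either miniSOX library and was 1.31 in log2 with adjusted p = 0.223 without the wave term, and FNV against SOX2 in 2i (1.34 ± 0.38 in log2, adjusted p = 0.0183, lost on averaging) ended without SOX2 p31 and without the wave term. Mov10l1, the helicase that feeds RNA into piRNA production, was 226, 231 and 162 in NTC, 233, 194, 149 and 129 in SOX2, 152, 138, 295 and 171 in FNV and 148 and 156 in miniSOX cells in 2i. SL libraries held 318 and 286 in NTC, 368 and 454 in SOX2, 405 and 394 in FNV and 259 and 322 in miniSOX cells. In every line all libraries in 2i were below those in SL. It fell in SOX2 cells (-1.19 ± 0.29 in log2, adjusted p = 0.00405, lost on averaging) and in FNV cells (-1.08 ± 0.29 in log2, adjusted p = 0.00773, lost on averaging). Asz1, a mitochondrial surface protein of the granule, was 345, 350 and 357 in NTC, 381, 404, 351 and 273 in SOX2, 244, 268, 356 and 295 in FNV and 357 and 356 in miniSOX cells in 2i. Its SL values were 274 and 261 in NTC, 352 and 387 in SOX2, 167 and 195 in FNV and 218 and 230 in miniSOX cells. FNV had the lowest libraries in SL, below SOX2 (-1.03 ± 0.18 in log2, adjusted p = 0.000991, lost on averaging).

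Tudor domain proteins bind methylated PIWI proteins. Tdrd1 was 41, 21 and 37 in NTC, 42, 39, 46 and 36 in SOX2, 38, 51, 57 and 38 in FNV and 23 and 26 in miniSOX cells in 2i. In SL it stood at 56 and 57 in NTC, 65 and 79 in SOX2, 78 and 68 in FNV and 67 and 80 in miniSOX cells. MiniSOX libraries in 2i and NTC replicate 2 were the lowest, at 21 to 26. The largest fall was in miniSOX cells (-1.54 ± 0.28 in log2, adjusted p = 0.000622). Tdrd7 (ENSMUSG00000035517, chromosome 4, 45965334 to 46034761, plus strand, GRCm38) was 29, 27 and 76 in NTC, 17, 25, 32 and 32 in SOX2, 53, 50, 50 and 57 in FNV and 40 and 37 in miniSOX cells in 2i. SL values were 160 and 134 in NTC, 45 and 45 in SOX2, 40 and 32 in FNV and 70 and 96 in miniSOX cells. NTC libraries in SL stood above all others. It fell in NTC cells in 2i (-2.08 ± 0.28 in log2, adjusted p = 0.000111), and in SL it was lower than in NTC in FNV cells (-2.003 ± 0.30 in log2, adjusted p = 0.000216) and in SOX2 cells (-1.68 ± 0.30 in log2, adjusted p = 0.00216, lost on averaging). Tdrd9, a helicase with a Tudor domain, lay between 16 and 65 and rose in FNV cells in 2i (1.58 ± 0.30 in log2, adjusted p = 0.000714). Tdrkh, a mitochondrial Tudor protein of piRNA trimming whose exons overlap Oaz3 on the opposite strand by 2255 bases, was 91, 83 and 87 in NTC, 117, 111, 91 and 71 in SOX2, 136, 165, 182 and 120 in FNV and 94 and 125 in miniSOX cells in 2i. It was 125 and 145 in NTC, 134 and 114 in SOX2, 154 and 178 in FNV and 134 and 149 in miniSOX cells in SL. Every FNV library in 2i was above every NTC library in 2i (0.80 ± 0.17 in log2, adjusted p = 0.00176). Rnf17 (ENSMUSG00000000365, chromosome 14, 56402581 to 56525032, plus strand, GRCm38), a Tudor and RING protein of spermatids, was 3726, 3726 and 1488 in NTC, 4138, 4138, 2112 and 1423 in SOX2, 3682, 3967, 3537 and 1842 in FNV and 4088 and 4138 in miniSOX cells in 2i. In SL the libraries gave 1687 and 1531 in NTC, 1385 and 1429 in SOX2, 2268 and 2038 in FNV and 1389 and 1475 in miniSOX cells. All p31 libraries and SOX2 p21 in 2i were within the SL range, and all replicates 1 and 2 in 2i were above it. The rise in miniSOX cells was 1.52 ± 0.26 in log2, adjusted p = 0.000399, and in SOX2 cells it was 1.44 ± 0.24 in log2, adjusted p = 0.000215 (without the wave term 0.93 in log2 with adjusted p = 0.116). In SL miniSOX and SOX2 libraries overlapped, and the fitted change of 1.04 was 0.03 without the wave term and lost its call without any 1 of these 4 libraries.

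Gtsf1, a zinc finger partner of PIWI proteins, was 151, 160 and 91 in NTC, 287, 246, 199 and 150 in SOX2, 194, 185, 166 and 113 in FNV and 173 and 184 in miniSOX cells in 2i. Its SL values were 112 and 122 in NTC, 131 and 122 in SOX2, 120 and 168 in FNV and 115 and 96 in miniSOX cells. SOX2 replicates 1 and 2 in 2i were the highest libraries. It rose in SOX2 cells in 2i (1.05 ± 0.18 in log2, adjusted p = 0.000287). Stk31, a Tudor and kinase domain protein, held 1111, 1138 and 1007 in NTC, 1037, 1014, 946 and 898 in SOX2, 1124, 1158, 1094 and 1293 in FNV and 1207 and 1227 in miniSOX cells in 2i. In SL it held 949 and 904 in NTC, 825 and 825 in SOX2, 1272 and 1385 in FNV and 1362 and 1356 in miniSOX cells. FNV and miniSOX libraries in SL were above those of NTC and SOX2, in miniSOX against SOX2 by 0.79 ± 0.10 in log2, adjusted p = 0.00011 and in FNV against SOX2 by 0.69 ± 0.09 in log2, adjusted p = 0.000101, lost on averaging. Tex19.1 (ENSMUSG00000039329, chromosome 11, 121146143 to 121148319, plus strand, GRCm38), which represses retrotransposons in germ cells and placenta, was 660, 647 and 1479 in NTC, 247, 233, 561 and 569 in SOX2, 267, 259, 525 and 951 in FNV and 539 and 540 in miniSOX cells in 2i. SL libraries were 665 and 817 in NTC, 1563 and 991 in SOX2, 191 and 333 in FNV and 1804 and 1857 in miniSOX cells. Both FNV libraries in SL lay below all other SL libraries, and in 2i the p31 library of each line was the highest of its line. It fell in 2i in SOX2 cells (-2.399 ± 0.24 in log2, adjusted p = 2.82e-06) and miniSOX cells (-1.76 ± 0.27 in log2, adjusted p = 0.000144). FNV was below SOX2 in SL (-2.298 ± 0.27 in log2, adjusted p = 4.49e-05), and this difference changed between media (2.52 ± 0.33 in log2, adjusted p = 0.000154). The SOX2 against NTC difference between media (-2.19 ± 0.34 in log2, adjusted p = 0.000592) did not pass without the wave term (adjusted p = 0.126).

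Dazl (ENSMUSG00000010592, chromosome 17, 50279395 to 50293636, minus strand, GRCm38), an RNA-binding protein that licenses germ cells for gametogenesis, was 3647, 3681 and 3966 in NTC, 5995, 6371, 3863 and 2151 in SOX2, 2838, 3135, 3936 and 2064 in FNV and 3647 and 3863 in miniSOX cells in 2i. In SL its libraries were 1111 and 1089 in NTC, 1716 and 1701 in SOX2, 1479 and 1509 in FNV and 1051 and 1119 in miniSOX cells. Every 2i library lay above every SL library. It rose in NTC cells (1.91 ± 0.31 in log2, adjusted p = 0.000522, lost on averaging), miniSOX cells (1.79 ± 0.33 in log2, adjusted p = 0.00082), SOX2 cells (1.51 ± 0.31 in log2, adjusted p = 0.00108, lost on averaging) and FNV cells (1.17 ± 0.31 in log2, adjusted p = 0.00677, lost on averaging). Each held without any 1 library and without the wave term. The miniSOX libraries were not averaged, so the miniSOX call was not put to that check. Kit (ENSMUSG00000005672, chromosome 5, 75574916 to 75656722, plus strand, GRCm38), the receptor for stem cell factor on primordial germ cells and other stem cells, was 3404, 3536 and 4667 in NTC, 3579, 3481, 3819 and 3819 in SOX2, 1025, 1075, 1428 and 749 in FNV and 1621 and 1569 in miniSOX cells in 2i. SL values were 1769 and 1842 in NTC, 1114 and 1119 in SOX2, 598 and 663 in FNV and 204 and 197 in miniSOX cells. NTC and SOX2 libraries were above those of FNV and miniSOX in each medium. The change of miniSOX cells in 2i (2.99 ± 0.20 in log2, adjusted p = 6.05e-08) was the largest of the 4 lines. Kit was lower than in SOX2 cells in FNV cells in 2i (-1.82 ± 0.14 in log2, adjusted p = 6.24e-07) and in miniSOX cells in SL (-2.61 ± 0.23 in log2, adjusted p = 5.10e-06; without the wave term -2.47). Dmrt1 (ENSMUSG00000024837, chromosome 19, 25505618 to 25604329, plus strand, GRCm38), a transcription factor of testis fate, was 362, 438 and 435 in NTC, 605, 628, 703 and 782 in SOX2, 798, 850, 932 and 681 in FNV and 1737 and 1694 in miniSOX cells in 2i. It was 359 and 510 in NTC, 741 and 507 in SOX2, 507 and 404 in FNV and 1124 and 1055 in miniSOX cells in SL. MiniSOX had the highest libraries in each medium, above SOX2 in 2i (1.28 ± 0.18 in log2, adjusted p = 0.00039; without the wave term 1.34).

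Of the spermatogenic genes, Brdt (ENSMUSG00000029279, chromosome 5, 107331159 to 107387058, plus strand, GRCm38), the testis BET bromodomain protein, was 165, 174 and 127 in NTC, 178, 191, 157 and 185 in SOX2, 281, 292, 277 and 352 in FNV and 286 and 291 in miniSOX cells in 2i. Its SL libraries were 103 and 109 in NTC, 133 and 134 in SOX2, 127 and 115 in FNV and 100 and 102 in miniSOX cells. FNV and miniSOX libraries in 2i stood above all others. It rose in miniSOX cells (1.505 ± 0.15 in log2, adjusted p = 2.70e-06) and FNV cells (1.35 ± 0.14 in log2, adjusted p = 2.35e-06), and FNV was above SOX2 in 2i (0.75 ± 0.10 in log2, adjusted p = 0.000118). Taf7l, a germ cell paralogue of a TFIID subunit, held 326, 321 and 272 in NTC, 211, 240, 153 and 91 in SOX2, 227, 208, 227 and 168 in FNV and 211 and 214 in miniSOX cells in 2i. In SL there stood 226 and 199 in NTC, 329 and 343 in SOX2, 176 and 161 in FNV and 208 and 220 in miniSOX cells. NTC was the highest line in 2i and SOX2 in SL, and the SOX2 against NTC difference between media passed (-1.48 ± 0.30 in log2, adjusted p = 0.004, lost on averaging), as did FNV against SOX2 (1.33 ± 0.29 in log2, adjusted p = 0.00586, lost on averaging). Tex14, needed for intercellular bridges between germ cells, was 834, 793 and 365 in NTC, 531, 513, 359 and 294 in SOX2, 342, 335, 340 and 227 in FNV and 361 and 373 in miniSOX cells in 2i. SL libraries held 496 and 530 in NTC, 665 and 738 in SOX2, 697 and 692 in FNV and 368 and 417 in miniSOX cells. FNV libraries in 2i were below those in SL, and in 2i FNV was lower than NTC (-0.91 ± 0.16 in log2, adjusted p = 0.000326). The difference between media of SOX2 against NTC (-0.94 ± 0.26 in log2, adjusted p = 0.0199, lost on averaging) ended without NTC replicate 1 or SOX2 replicate 2 in SL. Tex101, a germ cell surface glycoprotein, was 17, 17 and 40 in NTC, 16, 13, 52 and 31 in SOX2, 61, 51, 90 and 96 in FNV and 24 and 31 in miniSOX cells in 2i. It was 23 and 25 in NTC, 15 and 19 in SOX2, 20 and 14 in FNV and 22 and 24 in miniSOX cells in SL. FNV p21 and p31, at 90 and 96, were the highest libraries, and FNV was above SOX2 in 2i (1.53 ± 0.20 in log2, adjusted p = 8.14e-05) with 1 SOX2 library overlapping. Slc25a31, the ADP and ATP carrier of germ cells, was 295, 287 and 267 in NTC, 282, 291, 258 and 227 in SOX2, 302, 297, 340 and 322 in FNV and 334 and 314 in miniSOX cells in 2i. Its SL values were 247 and 256 in NTC, 359 and 339 in SOX2, 235 and 266 in FNV and 336 and 312 in miniSOX cells. Libraries spanned a narrow range, with the largest change in the FNV against SOX2 difference between media (0.74 ± 0.14 in log2, adjusted p = 0.00252, lost on averaging). Rpl10l (ENSMUSG00000060499, chromosome 12, 66283379 to 66284401, minus strand, GRCm38), a testis copy of the ribosomal protein gene Rpl10 that shares 7.6% of its 50-base windows with other genes, was 1769, 1775 and 1321 in NTC, 1694, 1731, 1578 and 1272 in SOX2, 778, 827, 752 and 940 in FNV and 1554 and 1716 in miniSOX cells in 2i. In SL it was 1317 and 1265 in NTC, 1351 and 1356 in SOX2, 718 and 731 in FNV and 660 and 651 in miniSOX cells. FNV libraries lay below NTC and SOX2 in each medium, and miniSOX libraries were the lowest in SL. It was lower in FNV than in SOX2 cells in 2i (-0.92 ± 0.10 in log2, adjusted p = 8.13e-06) and SL (-0.90 ± 0.13 in log2, adjusted p = 0.000365, lost on averaging), and rose in miniSOX cells in 2i (1.32 ± 0.13 in log2, adjusted p = 3.86e-06).

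Between media, members moved both ways in each line. In NTC cells 8 of 43 members were higher in 2i, where 11.9% of all genes were higher, and 6 were lower, where 12.8% of all genes were. Dazl, Rec8, Rnf17 and Kit rose and Syce2, Meioc and Tdrd7 fell whichever 1 library was left out, with Rec8 and Rnf17 lost without the wave term, and with replicates averaged Tdrd7 alone of the 14 calls was kept. The count of 14 was 8 without NTC replicate 2 in 2i and 7 and 9 without replicate 1 or 2 in SL. In SOX2 cells 10 were higher (22.3% of all genes) and 15 lower (22.5%), and 9 of the lower calls held without any 1 library: Mael, Tex19.1, Syce2, Meioc, Tdrd7, Mov10l1, Tex11, Tex15 and Rad51ap2. Of these Tdrd7 was lost without the wave term, and Tdrd7 and Mov10l1 on averaging, which kept 4 of the 10 higher and 7 of the 15 lower calls. In FNV cells 17 were higher (20.3% of all genes) and 9 lower (20.4%), with a median log2 change of 0.32 over members and 0.03 over all genes, and averaging kept 6 and 2 of them. In miniSOX cells 13 were higher (17% of all genes) and 13 lower (16.4%), and the count of 26 was 15 or 16 without any 1 of its 4 libraries. Medians of the members were -0.08 in NTC, -0.09 in SOX2 and 0.00 in miniSOX cells. By role, 5 of 9 germ cell regulators and spermatogenic genes rose in NTC and in miniSOX cells with 0 lower, 6 rose and 1 fell in FNV cells, and 3 rose and 2 fell in SOX2 cells. Of 21 meiotic chromosome genes, 1 rose and 4 fell in NTC, 4 and 7 in SOX2, 7 and 4 in FNV and 4 and 7 in miniSOX cells. Of the 13 piRNA genes, 2 and 2, 3 and 6, 4 and 4, and 4 and 6 did, in the same order of lines. Markers of other cell types moved with the medium too. The summed trophectoderm markers were 775 to 2388 in NTC cells in 2i and 8804 to 8828 in SL, and in FNV cells 4800 to 7161 in 2i and 1421 to 1533 in SL. Of the 9 markers 1 rose and 5 fell in 2i in NTC cells, and 5 rose and 1 fell in FNV cells. Krt8 was the largest part of the NTC sums, at 381, 355 and 958 in 2i and 4732 and 5051 in SL. Cdx2 went the other way in NTC cells, at 15, 12 and 519 in 2i and 0 and 2 in SL. Summed fibroblast markers were 154 to 204 in NTC cells in 2i and 537 to 584 in SL, and in FNV cells 217 to 239 and 1007 to 1054. Of these 10 markers 0 rose and 5 fell in 2i in NTC and in FNV cells. Thy1 was 530 and 523 in FNV cells in SL and 15, 15, 23 and 12 in 2i. The 6 pluripotent markers summed to 42735 to 61899 in NTC cells in 2i and to 30449 to 32457 in SL. Their part in the changes between media was not tested.

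**Figure D3:**
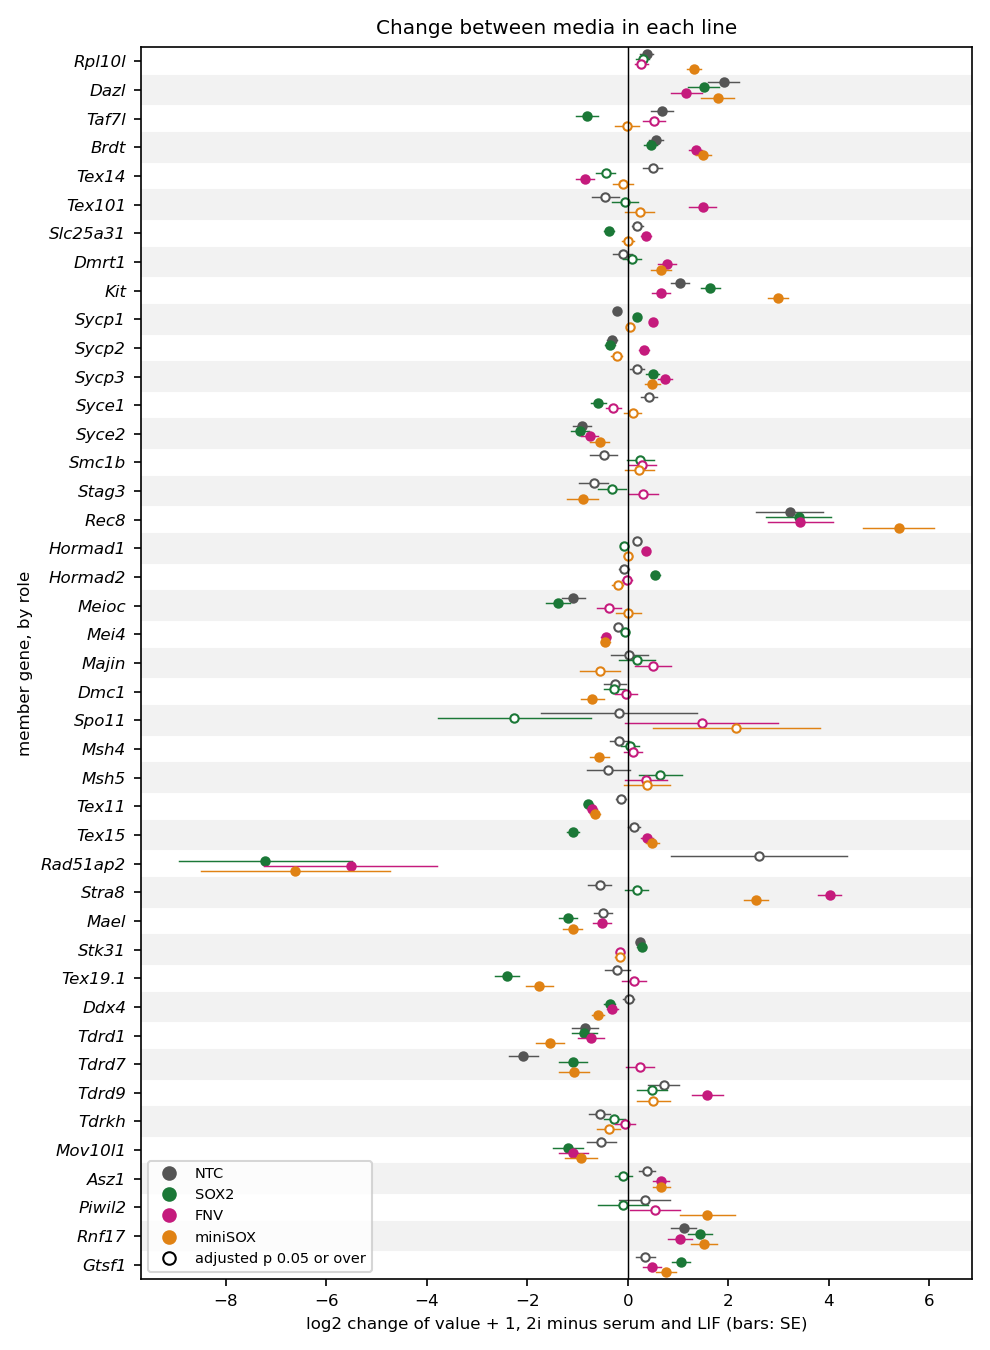
Log2 change of value + 1 from SL to 2i (horizontal axis, with SE bars) for the 43 members in the 4 lines, coloured by line. Filled points passed at an adjusted p under 0.05. Dazl, Brdt, Rec8, Rnf17 and Kit lie to the right in all lines and Syce2 and Tdrd1 to the left, while Stra8 is filled, far to the right, in FNV and miniSOX cells.

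In 2i, SOX2 against NTC gave 8 members higher (14.4% of all genes) and 7 lower (14.3%). Mael, Sycp1, Stra8, Gtsf1 and Dmrt1 were higher and Tex19.1, Taf7l, Tex11, Tex15 and Rad51ap2 lower with any 1 library left out, and those of Tex19.1, Stra8 and Gtsf1 were lost without the wave term. Averaging ended the calls of Mael, Stra8 and Taf7l among these. FNV against NTC gave 16 higher (19.7% of all genes) and 7 lower (20%), with a median of 0.31 over members and -0.01 over all genes, of which averaging kept 12 and 5. FNV against SOX2 gave 15 higher (12.4% of all genes) and 5 lower (12.9%), with a median of 0.22 over members and -0.01 over all genes. The 12 higher calls that held without any 1 library were Stk31, Ddx4, Sycp2, Sycp3, Hormad2, Tdrd7, Tdrd9, Tdrkh, Brdt, Tex15, Tex101 and Stra8, and of the lower ones Rpl10l and Kit did. Of these Sycp3 was lost without the wave term, and Stk31, Sycp3, Tdrd7, Tdrd9 and Tdrkh on averaging. In the first wave alone Stk31, Ddx4, Sycp2, Tdrd9 and Tdrkh were lost, and 8 of the 15 higher and 5 of the 5 lower calls were kept. MiniSOX against SOX2 gave 11 higher (7.32% of all genes) and 2 lower (7.57%), and the 13 calls were 6 without either miniSOX library or without the wave term. Hormad2, Brdt, Tex15, Stra8 and Dmrt1 were higher and Kit lower with any 1 library left out, of which Hormad2 did not pass without the wave term. FNV against SOX2 and miniSOX against SOX2 share the SOX2 libraries.

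In SL, where each group has 2 libraries, SOX2 against NTC gave 6 members higher (7.35% of all genes) and 2 lower (7.63%), and these 8 were 4 without NTC replicate 1 or SOX2 replicate 1 and 5 without NTC replicate 2. Mael was higher and Tdrd7 lower in each of these fits. With replicates averaged, 0 of the 8 calls were kept, these included. FNV against NTC gave 5 higher (14.2% of all genes) and 9 lower (15.8%), of which averaging kept 1 and 3. FNV against SOX2 gave 3 higher (10.2% of all genes) and 13 lower (11.2%), with a median of -0.19 over members and 0 over all genes. Mael, Tex19.1, Rpl10l, Sycp1, Asz1, Tex15 and Stra8 were lower and Stk31 and Hormad2 higher whichever 1 library was left out, and Stra8 was lost without the wave term. With replicates averaged 1 higher call (Hormad2) and 1 lower call (Tex19.1) were kept. MiniSOX against SOX2 gave 6 higher (10.4% of all genes) and 6 lower (11.2%), and the 12 calls were 6 without replicate 2 of SOX2 or of miniSOX and 7 without miniSOX replicate 1. Without the wave term, which is estimated in 2i, 3 of the 6 higher and 5 of the 6 lower calls were kept. Lost were Smc1b, Stra8 and Rnf17 among the higher and Syce1 among the lower, the last going from -0.71 to -0.14 in log2.

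The change of the FNV against SOX2 difference between media was tested directly. It was higher in 2i for 14 members (10.7% of all genes) and lower for 4 (10.1%), with a median of 0.30 over members and -0.001 over all genes. The count of 18 was 11 without FNV replicate 2 in SL. Those that held without any 1 library were Tex19.1, Sycp2, Hormad1, Taf7l, Brdt, Tex15, Tex101, Slc25a31 and Stra8 in the higher and Hormad2 in the lower direction, of which Tex101 and Hormad2 were lost without the wave term. With replicates averaged 3 higher calls (Tex19.1, Tex15 and Stra8) and 0 lower calls were kept. For SOX2 against NTC the difference between media was higher for 2 members (9.82% of all genes) and lower for 8 (9.01%), with a median of -0.04 over members and 0.01 over all genes. Sycp1 and Hormad2 were the higher ones, and Tex19.1, Syce1, Taf7l, Tex11 and Tex15 were lower whichever 1 library was left out. Hormad2, Tex19.1 and Syce1 were lost without the wave term, and averaging kept Tex19.1 and Tex15 alone.

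**Figure D4:**
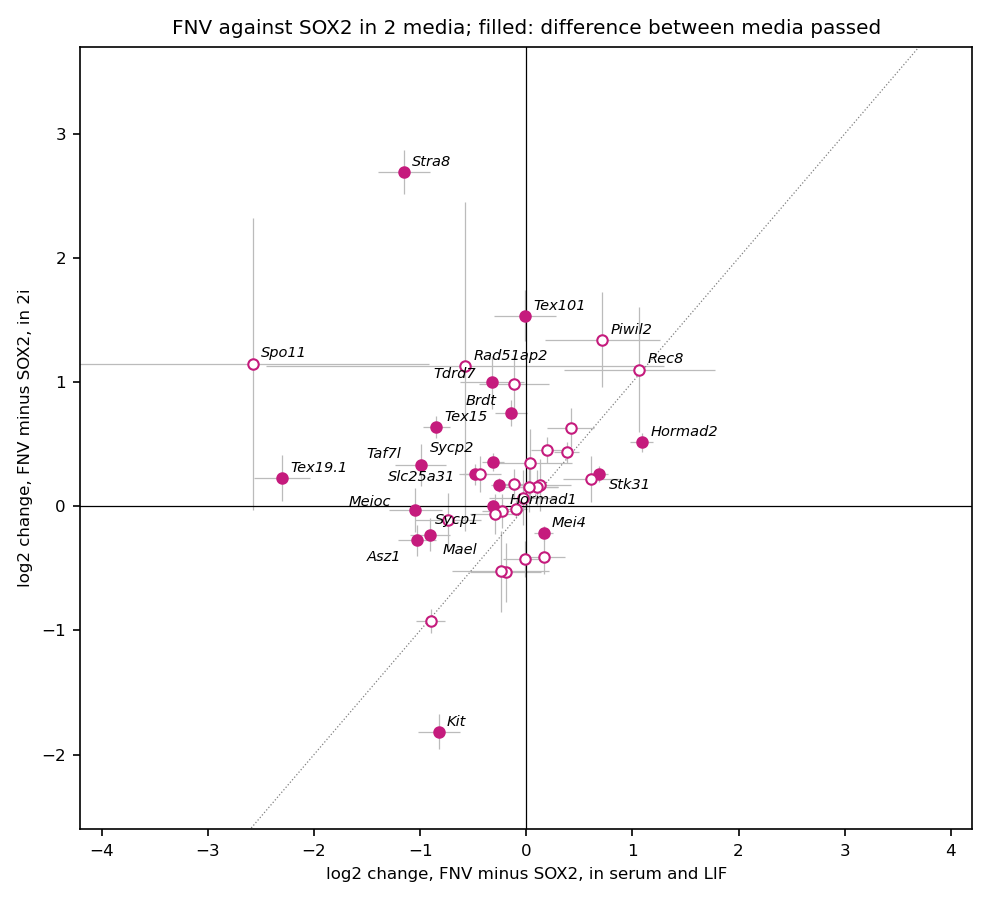
Log2 change of FNV against SOX2 in SL (horizontal) and in 2i (vertical) for the 43 members, with SE bars in both directions. The dotted line marks equal changes, and filled points are the 18 members whose difference between media passed. Stra8 stands at -1.15 in SL and 2.69 in 2i, and Tex19.1 at -2.30 and 0.23.

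Second-wave libraries in 2i differed from the first wave for part of the set. The p31 library was below both first-wave libraries in all 3 lines for 13 of 43 members (30.2%) and 3685 of 16443 genes (22.4%), and above both in all 3 for 4 members (9.3%) and 20.2% of all genes. These are descriptions without a test. For Rec8 the p31 library minus the first-wave mean was -2.72 in NTC, -3.44 in SOX2 and -3.15 in FNV cells on the log2 scale. For Tex19.1 it was 1.18, 1.24 and 1.85 in the same lines. The FNV p21 library differed by -0.04 for Rec8, where SOX2 p21 differed by -1.76. What p21 and p31 denote is not stated in the labels, so passage, culture and sequencing run cannot be told apart.

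**Figure D5:**
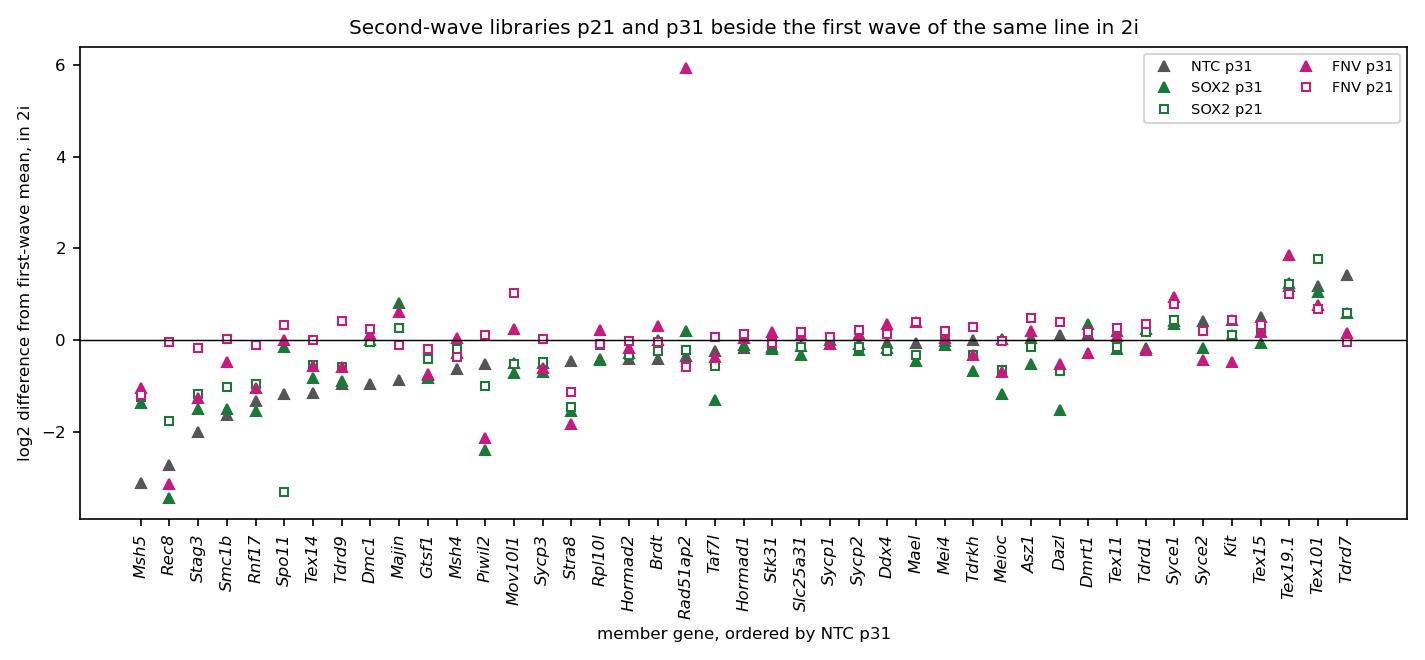
Log2 difference of each p31 library (triangles) and p21 library (open squares) from the mean of replicates 1 and 2 of the same line in 2i, for the 43 members ordered by NTC p31. Rec8, Stag3, Smc1b and Rnf17 lie below 0 in all p31 libraries and near 0 in FNV p21, and Tex19.1 and Tex101 lie above 0 in every library shown.

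Germline genes outside the set, 46 of 56 listed being present, also moved both ways: 5 rose and 7 fell in NTC cells in 2i (11.9% and 12.8% of all genes), and 7 were higher and 8 lower in FNV than in SOX2 cells in 2i (12.4% and 12.9% of all genes). In NTC cells the germ cell specifier Prdm14 rose (2.14 ± 0.14 in log2, adjusted p = 8.95e-08), with Fkbp6 (2.25 ± 0.22 in log2, adjusted p = 6.72e-06) and Sycp2l (1.74 ± 0.23 in log2, adjusted p = 0.000101), and Zcwpw1, a histone reader at recombination sites, fell (-1.03 ± 0.16 in log2, adjusted p = 0.000304). Of 11 DNA methylation genes present, 0 rose and 3 fell in NTC cells in 2i. The 3 were the cofactor Dnmt3l (-2.25 ± 0.39 in log2, adjusted p = 0.000877) and the de novo enzymes Dnmt3a (-1.45 ± 0.26 in log2, adjusted p = 0.00111) and Dnmt3b (-1.55 ± 0.29 in log2, adjusted p = 0.00129). In 2i 3 of the 11 were higher and 2 lower in FNV than in SOX2 cells. The higher ones were the methyl-CpG binding gene Mbd2 (0.76 ± 0.12 in log2, adjusted p = 0.000399), Dnmt3l (1.54 ± 0.30 in log2, adjusted p = 0.00162) and Dnmt3b (0.91 ± 0.22 in log2, adjusted p = 0.00661), and the lower ones the glycosylase gene Tdg (-0.34 ± 0.08 in log2, adjusted p = 0.00807) and the dioxygenase gene Tet3 (-0.67 ± 0.22 in log2, adjusted p = 0.0391). Of 24 PRC1.6 and related repressor genes, all present, 4 rose and 3 fell in NTC cells in 2i, and 5 were higher and 7 lower in FNV than in SOX2 cells in 2i, against the same shares of all genes.

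Markers of other cell types also moved with the lines. The summed value of 9 trophectoderm markers, all present, was 278 to 1294 in SOX2, 4800 to 7161 in FNV and 2230 to 2463 in miniSOX cells in 2i, and 15190 to 15484 in miniSOX cells in SL. In 2i 5 of the 9 were higher and 1 lower in FNV than in SOX2 cells. From SL to 2i 2 rose and 6 fell in miniSOX cells. Krt8 (8269 and 8024) and Krt18 (5475 and 5475) made up most of the miniSOX sum in SL. Cdx2 was 0 and 1 in miniSOX cells in SL and 106 and 86 in 2i. The summed value of 6 of 9 extraembryonic endoderm markers was 4996 to 7523 in SOX2 and 10990 to 12685 in FNV cells in 2i. Of these 6, 4 were higher and 0 lower in FNV than in SOX2 cells. Dab2 was 556, 549, 987 and 1379 in SOX2 and 4972, 4972, 3897 and 4178 in FNV cells in 2i. Col4a1 was 348, 352, 766 and 215 in SOX2 and 121, 84, 462 and 694 in FNV cells. For 10 of 11 markers of 2-cell-like cells the summed value was 915 to 1368 in SOX2 and 1413 to 2042 in FNV cells in 2i. In FNV cells in SL it was 3128 to 3288. The 10 fibroblast markers summed to 188 to 254 in SOX2 and 217 to 239 in FNV cells in 2i, and to 1828 to 2017 in miniSOX cells in SL. Their part in the changes of Stra8, Kit, Brdt, Hormad2 and the other members was not tested. Genes outside the set whose 8 group means most resembled the mean profile of the 39 members at 50 or above were Cables2, Arhgef17, Zfp866, Herc4 and G3bp2, with Pearson's r from 0.94 to 0.92 over 8 group means that share libraries, given as a description.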

How the data were processed

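The table, deposited as filtered, holds 1 whole-number score per gene and library. The authors had brought all libraries to nearly the same distribution before deposit (66.34% of ranks hold identical values in all libraries), with software not given in the sources used here. Per the submitters' processing notes, reads were processed with RSEM and Bowtie2 2.0 on mm10. Such scaling hides depth and any change shared by most genes. Groups came from the labels, and 5 columns named p21 or p31 were matched to a group only.

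From these values, limma 3.58.1 in R 4.3.3 (trend and robust options, log2(value + 1), group and wave terms, all 21 libraries, no filter) gave log2 changes and Benjamini-Hochberg adjusted p-values over 16443 genes, with a threshold of 0.05; the script was tested on simulated data. Figures were drawn with matplotlib 3.10.9. Coordinates are from GENCODE for GRCm38. Members, gene lists and tests were chosen with earlier results of these data known. Each member whose highest group mean was at least 50 and that passed in any comparison is given in every library, with statistics for its largest changes, and the others by range. Alternatives were a pseudocount of 0.1 or 10, a mean of at least 10, median centring, no wave term, either wave alone, averaged first-wave replicates, only the groups compared, a replicate block, each library left out and, added after seeing the data, the p31 libraries left out. Promoters were not analysed here.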

Additional observations from a re-analysis of the deposited data

Results flagged for a closer look

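In the 4 FNV libraries in 2i, p31 lay far from the other 3 by Dixon's test for 6 members, namely Sycp3 (939), Smc1b (823), Piwil2 (112) and Tex14 (227), where it was low, and Majin (42) and Rad51ap2 (181), where it was high. The rate of about 1 in 20 for chance flags holds for 4 separate libraries drawn alike. Here they were replicates 1 and 2 of the first wave and p21 and p31 of the second, so that rate does not apply. The 6 flags among 43 members are therefore a description, and whether they exceed chance was not tested. The share of all genes flagged in this way is not given here.

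The effect of SOX2 against NTC differed between media, by a limma interaction term passing an adjusted p of 0.05, for 10 members. On the log2 scale the 2i minus SL difference was 0.409 for Sycp1 and 0.63 for Hormad2. It was below 0 for Tex19.1 (-2.188), Syce1 (-0.998), Taf7l (-1.484), Tex11 (-0.649), Tex14 (-0.937), Tex15 (-1.22), Slc25a31 (-0.562) and Rad51ap2 (-9.829), the last from libraries that sit on 2 separate levels within NTC in SL. Leaving out 1 library moved Rad51ap2 between -13.168 and -6.491, and its call ended without NTC replicate 1 in SL. The call of Tex14 ended without NTC replicate 1 or SOX2 replicate 2 in SL, and that of Slc25a31 without replicate 1 of NTC or SOX2 in SL. With first-wave replicates averaged, Tex19.1 and Tex15 alone kept their calls.

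The effect of FNV against SOX2 differed between media in the same way for 18 members. Stra8 had the largest difference, 3.844, followed by Tex19.1 (2.525), Tex101 (1.546), Tex15 (1.487), Taf7l (1.328), Tdrd7 (1.322) and Meioc (1.013). Smaller positive differences were found for Brdt (0.894), Asz1 (0.753), Slc25a31 (0.736), Mael (0.676), Sycp2 (0.67), Hormad1 (0.425) and Sycp1 (0.319). Kit (-0.991), Hormad2 (-0.573), Stk31 (-0.425) and Mei4 (-0.381) went the other way. The calls of Stk31 and Kit ended without FNV replicate 2 in SL, and those of Meioc, Mei4 and Tdrd7 without that library or either SOX2 library in SL. That of Sycp1 ended without FNV replicate 2 or SOX2 replicate 1 in SL and that of Asz1 without FNV replicate 1 or SOX2 replicate 2 in SL. That of Mael ended without any 1 of 9 libraries. With first-wave replicates averaged, Tex19.1, Tex15 and Stra8 alone kept their calls.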

How the results depend on the processing

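No member call changed direction under any alternative (0 of 3880 repeats), and 3210 repeats kept the call. Of 240 calls, 240 were kept with a pseudocount of 10 and with a mean of at least 10, 237 with a pseudocount of 0.1, 231 with median centring and 177 with only the groups compared. The depth is unknown, so what it limits cannot be stated. Counts below are members called. The share of all genes called under each alternative was not computed, so a changed count cannot be read as a result about the set. Where a cause is not plain from the construction (fewer libraries or fewer degrees of freedom), the cause was not tested.

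Without the wave term the counts were 9 for 2i against SL in NTC, 7 for SOX2 against NTC, 6 for miniSOX against SOX2 in 2i, 4 for SOX2 against NTC and 8 for FNV against NTC in SL, and 6 for the SOX2 against NTC difference between media. In the first wave alone they were 27 for 2i against SL in NTC, 19 for SOX2 against NTC and 25 for FNV against NTC in SL, and 18 for the SOX2 against NTC difference. Of 189 calls that could be fitted in the first wave 172 were kept, with 8 of 15 higher calls of FNV against SOX2 in 2i. In the second wave alone, in 2i, the counts were 4 for SOX2 against NTC, 12 for FNV against NTC, 8 for FNV against SOX2 and 6 for miniSOX against SOX2. With first-wave replicates averaged they were 1 in NTC, 11 in SOX2 and 8 in FNV cells between media, 7 for SOX2 against NTC, 9 for FNV against SOX2 and 6 for miniSOX against SOX2 in 2i, 0 for SOX2 against NTC, 4 for FNV against NTC, 2 for FNV against SOX2 and 4 for miniSOX against SOX2 in SL, and 2 and 3 for the differences between media of SOX2 against NTC and FNV against SOX2. With only the groups compared they were 24 in NTC and 11 in FNV cells between media and 10 for FNV against SOX2 in 2i. With the p31 libraries left out, 153 of 164 calls were kept.

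Leaving out 1 library gave 7 to 16 calls in NTC, 18 to 26 in SOX2, 18 to 27 in FNV and 15 to 16 in miniSOX cells between media. In 2i it gave 11 to 14 for SOX2 against NTC, 20 to 25 for FNV against NTC, 16 to 21 for FNV against SOX2 and 6 to 13 for miniSOX against SOX2. In SL it gave 4 to 7, 11 to 12, 11 to 13 and 6 to 9 in the same order, and for the differences between media 7 to 13 for SOX2 against NTC and 11 to 20 for FNV against SOX2.

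With a replicate block the counts were 12, 25, 25 and 26 between media in NTC, SOX2, FNV and miniSOX cells, and 226 of 240 calls were kept. The differences between replicates 1 and 2 correlated at -0.092 to 0.086 between groups. These values do not tell whether replicates of the same number shared handling, since replicates 1 and 2 may be technical.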
